A study of Mus musculus with 6 samples.

Results

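The genes described here encode the voltage-gated sodium channels, the voltage-gated calcium channels, the transient receptor potential (TRP) channels and the hyperpolarization-activated cyclic nucleotide-gated (HCN) channels, with their auxiliary subunits, in the lateral septum of mice given olanzapine. Members were taken by gene symbol: every deposited row starting with Scn and a number, with Cacna, Cacnb or Cacng, or with Trpc, Trpm or Trpv and a number, and the Hcn channel genes. Of 35415 rows, 67 matched, 1 of them an opposite-strand transcript that was left out. The remaining 66 rows were 65 channel genes and Trpc4ap, whose symbol matches but which encodes a protein that binds TRPC4 and not a channel.

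The mice were female wild-type (WT) C57BL/6 animals, about 8 weeks old on arrival. For 12 weeks the olanzapine group ate chow with olanzapine, a second-generation antipsychotic, at 50 mg per kg of feed, and the control group ate standard chow. Total RNA of the lateral septum was sequenced in 6 libraries, 3 per group, each made from the pooled tissue of 3 mice, so n = 3 pools per group throughout, and p-values measure the spread between pools. The animals within a pool cannot be told apart, and in bulk tissue fewer cells of a type and less RNA per cell cannot be told apart either.

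Sodium channels carry the rising phase of the action potential, through pore-forming alpha subunits that are steered and tuned by small beta subunits. Calcium channels couple voltage to transmitter release, firing pattern and gene expression, and their alpha1 pores need alpha2delta and beta subunits to reach the membrane. Most proteins of the calcium channel gamma family serve AMPA receptors in the brain as transmembrane auxiliary subunits. HCN channels open on hyperpolarization and pace rhythmic firing, and TRP channels are cation channels opened by receptors, lipids, temperature, osmotic state or metals. TRPC4 and TRPC5 are known for high expression in lateral septal neurons, where channels of the TRPC family carry plateau depolarizations after metabotropic glutamate receptor activation.

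Counts per pool summed to between 38208153 and 39868872. All 12 listed markers of lateral septum neurons were detected, with means over the 6 pools from 2.66 to 209.8 FPKM, the read pairs of a gene scaled to its transcript length and to the depth of the library. Markers of tissue outside the septum differed between pools. Olanzapine pool 1 stood apart with a summed FPKM of 342 over 10 markers of cortical glutamatergic neurons, against 32.0 to 50.2 in the other 5 pools (9 of these markers had a log2 fold change above 0, and 0 were called), and 10 choroid plexus markers summed to between 29.1 and 5390 FPKM. In the olanzapine group 6 of 6 hepatocyte markers were called higher, at summed levels of 108 to 142 FPKM against 5.47 to 9.63 in the control group, and 4 of 6 nuclear-retained long noncoding RNAs were called higher, at 652 to 742 against 311 to 370.2 FPKM. No marker of these lists was at 0 on average. The part of these differences in the channel results was not tested, except where a value without a pool is given.

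No channel gene passed the edgeR test between olanzapine and control, and 5 passed DESeq2's, all lower. Of the 65 channel genes, 56 had enough counts to be tested, and edgeR's quasi-likelihood test called 0 of them higher and 0 lower at an adjusted p under 0.05 (Benjamini-Hochberg, over 17255 genes), where it called 2.32% of all genes. None passed that threshold together with a log2 fold change beyond 1, which 1.01% of all genes did. At an unadjusted p under 0.05, 11 of 56 (19.6%) passed, against 17.6% of all genes, and these were 10 lower and 1 higher, against 8.4% of all genes lower and 9.19% higher. DESeq2 called 5 members lower, among them Cacna2d2, Trpc5, Scn7a and Cacng5, and 0 higher, or 8.93%, against 6.69% of all genes in either direction, 2.85% lower and 3.84% higher. DESeq2 at an unadjusted p under 0.05 also passed 11, 10 lower and 1 higher, where 17.7% of all genes passed, 8.99% lower and 8.75% higher.

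The members' shifts were small. The log2 fold change lay below 0 for 35 of 56 members (62.5%, against 49.3% of all genes), and its median was -0.07, against 0.00 over all genes. The 95% interval of the log2 fold change lay within 1 of no change for 41 members and within 0.5 for 27. In 8 members (14.3%) every olanzapine pool was below every control pool, and in 0 every olanzapine pool was above. Over all genes 24.3% separated, 11% with olanzapine below and 13.3% with olanzapine above. Control pool 1 held the highest value of 25 of the 56 members (44.6%), against 17.6% of all genes, and without it the median was -0.03.

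**Figure D1:**
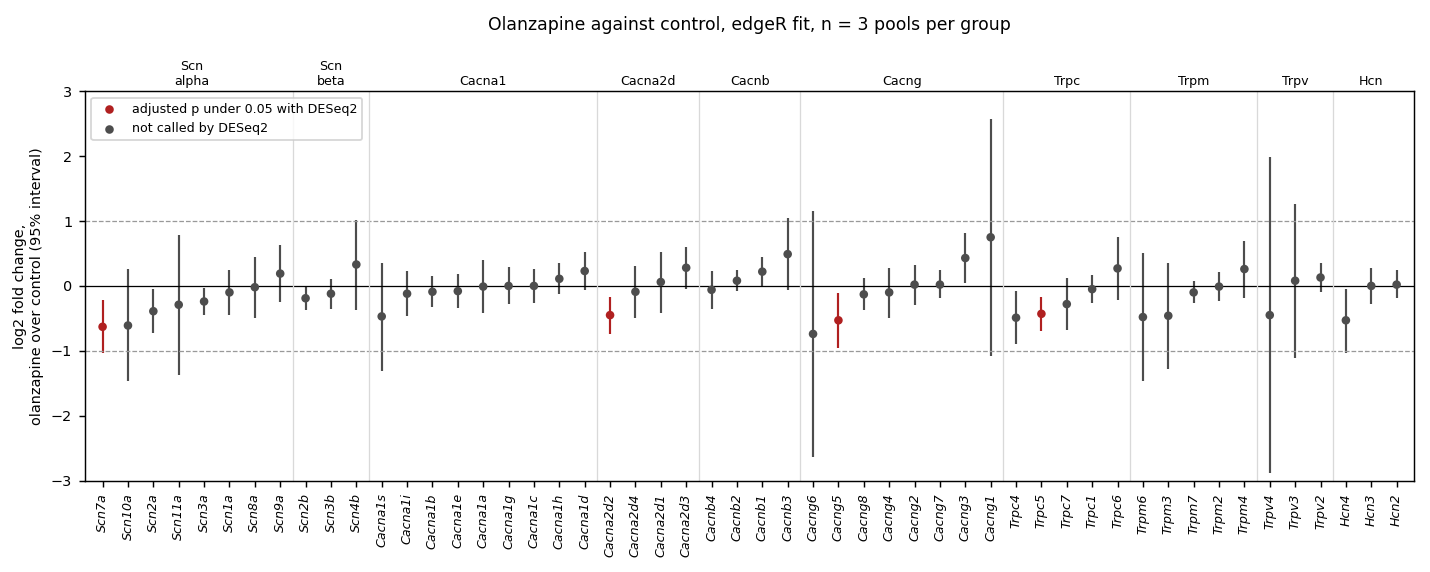
Log2 fold change of 52 tested channel genes, olanzapine over control, from edgeR on 3 pools per group, with 95% intervals as vertical lines, ordered by value within each family; dashed lines mark 1 and -1. Red marks the 4 genes drawn that DESeq2 called lower, and most points lie within 0.5 of the zero line, with the widest intervals at rarely transcribed genes and at Trpv4.

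The comparison turns on the genes called lower by DESeq2, and for 4 of them, Scn7a, Cacna2d2, Cacng5 and Trpc5, the 250 bases before the start annotated by RefSeq are given. Gene positions elsewhere are from GENCODE, whose starts can differ, and the Cacna2d2 window lies inside the gene as GENCODE places it. They come from RefSeq on build GRCm38.p6 and are written 5′ to 3′ on the gene's strand, with GC boxes (GGGCGG, or CCGCCC on the other strand) in capitals. The windows are chr2:66784911-66785160 (minus strand) for Scn7a, chr9:107399630-107399879 (plus strand) for Cacna2d2, chr11:107915056-107915305 (minus strand) for the upstream of the 2 annotated Cacng5 starts and chrX:144688181-144688430 (minus strand) for Trpc5.
Scn7a: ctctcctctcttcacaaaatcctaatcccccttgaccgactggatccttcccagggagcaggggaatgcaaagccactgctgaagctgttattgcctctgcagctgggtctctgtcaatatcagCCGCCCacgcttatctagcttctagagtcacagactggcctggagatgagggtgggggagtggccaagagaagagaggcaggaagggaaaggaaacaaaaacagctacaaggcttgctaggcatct
Cacna2d2: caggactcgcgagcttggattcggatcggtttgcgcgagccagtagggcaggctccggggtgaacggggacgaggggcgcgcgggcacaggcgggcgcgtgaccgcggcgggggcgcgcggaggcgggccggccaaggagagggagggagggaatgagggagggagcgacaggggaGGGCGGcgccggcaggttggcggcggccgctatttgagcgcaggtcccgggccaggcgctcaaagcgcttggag
Cacng5: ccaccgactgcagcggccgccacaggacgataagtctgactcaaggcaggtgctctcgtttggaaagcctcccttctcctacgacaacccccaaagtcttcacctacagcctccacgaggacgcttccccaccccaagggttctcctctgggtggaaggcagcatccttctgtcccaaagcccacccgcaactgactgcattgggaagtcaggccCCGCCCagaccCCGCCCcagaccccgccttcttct
Trpc5: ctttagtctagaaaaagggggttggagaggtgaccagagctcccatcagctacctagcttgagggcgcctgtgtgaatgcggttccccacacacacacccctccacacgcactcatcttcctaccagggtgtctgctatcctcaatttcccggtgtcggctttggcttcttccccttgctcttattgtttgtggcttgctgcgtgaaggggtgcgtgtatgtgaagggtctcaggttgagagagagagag
The Cacna2d2 window was the richest in G and C, at 74.4%, followed by Cacng5 at 62%, Trpc5 at 54.4% and Scn7a at 53.2%, and it held 1 GC box, as did Scn7a, where Cacng5 held 2 and Trpc5 0. Over the 52 members matched to RefSeq, 31.3% of 67 windows held a GC box, against 32.7% of all 32851 windows. The TATA box letters TATAAA stood in 8.96% of member windows and 12.4% of all, and CCAAT in 22.4% and 33.8%, both strands searched. The cyclic AMP response element TGACGTCA was in 0 of 67 member windows and in 1.55% of all. Whether the letters searched set apart the genes with the lowest p was not tested, and a match is a description of the sequence only.

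Among pore-forming sodium channel genes, levels ran from Scn2a at a mean of 25.0 FPKM over the 6 pools, Scn8a at 12.5 and Scn1a at 10.98 FPKM down to Scn10a and Scn11a, the nociceptor channels, at 0.106 and 0.0738 FPKM. Scn4a, the skeletal muscle channel, was too low to be tested, with an FPKM above 0 in 1 pool only. Across the family the log2 fold change was below 0 for 8 of the 9 tested genes, with a family median of -0.29, and 4 of 9 had an unadjusted p under 0.05, all lower, among them Scn7a, Scn3a and Scn2a, where 8.4% of all genes passed lower.

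Scn10a and Scn11a lie beside each other on chromosome 9, at a gap of 34.4 kb with no protein-coding gene between. Scn10a had 43.3 ± 1.40 normalized counts in control and 28.4 ± 10.4 in olanzapine (mean ± SD, n = 3), and the groups did not overlap, but the 95% interval of its log2 fold change of -0.61 ran from -1.47 to 0.26. For Scn11a the log2 fold change was -0.29 with an interval of -1.37 to 0.79. At these low counts neither interval was narrow enough to set a direction.

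Scn7a encodes a channel that has lost voltage gating and senses extracellular sodium, known from glia of the sensory circumventricular organs. Levels were 1.02, 1.02 and 1.05 FPKM in control pools 1 to 3 and 0.525, 0.692 and 0.809 FPKM in olanzapine pools 1 to 3. The control pools were nearly alike and all above the olanzapine pools, which were spread more widely. Normalized counts were 297 ± 2.66 in control and 192 ± 39.4 in olanzapine (mean ± SD, n = 3). The log2 fold change was -0.63 (95% interval -1.04 to -0.22), which edgeR's quasi-likelihood test did not call (adjusted p = 0.126) and DESeq2 did (adjusted p = 0.0297). DESeq2 kept that call in 1 of 6 fits that left out a pool, the fit without olanzapine pool 3.

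Scn2a, the channel of excitatory axons and their initial segments, was the most highly expressed alpha subunit at 30.3, 29.0 and 25.1 FPKM in control pools 1 to 3 and 26.0, 18.1 and 21.4 FPKM in olanzapine pools 1 to 3. Olanzapine pool 1 lay among the control pools, and the other olanzapine pools lay below them. Its log2 fold change was -0.39 (95% interval -0.73 to -0.04), with an adjusted p of 0.232 in edgeR's quasi-likelihood test. Without olanzapine pool 1, which carried the cortical markers, it was -0.55 and Scn2a was called lower (edgeR adjusted p = 0.0436). Scn3a, a channel prominent before birth and 53.1 kb from Scn2a on chromosome 2, had a log2 fold change of -0.24 (95% interval -0.45 to -0.03) with overlapping groups.

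Scn8a, the channel of mature initial segments and nodes of Ranvier, was at 14.4, 12.3 and 10.9 FPKM in control pools 1 to 3 and 16.7, 10.3 and 10.4 FPKM in olanzapine pools 1 to 3. Its groups overlapped, with olanzapine pool 1 the highest, and its log2 fold change was -0.02 (95% interval -0.50 to 0.45). Without that pool it was -0.31 and not called by edgeR. For Scn1a, the channel of fast-spiking inhibitory neurons, the log2 fold change was -0.10 (95% interval -0.45 to 0.25), and for Scn9a, a channel best known from sensory neurons, it was 0.19 (95% interval -0.25 to 0.63), the only alpha subunit above 0.

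The sodium channel beta subunits link the pore to the cytoskeleton and to cell adhesion, and they were among the most abundant members. Scn2b stood at a mean of 70.9 FPKM over the 6 pools, Scn4b at 54.5 and Scn3b at 41.7 FPKM. For Scn3b the log2 fold change was -0.12 (95% interval -0.35 to 0.11), with overlapping groups.

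Scn2b was at 77.9, 76.1 and 71.3 FPKM in control pools 1 to 3 and at 66.7, 63.7 and 69.8 FPKM in olanzapine pools 1 to 3. The groups did not overlap, but they differed little, with a log2 fold change of -0.19 (95% interval -0.37 to -0.01) and an adjusted p of 0.25 in edgeR's quasi-likelihood test. Scn4b, whose protein blocks the pore to allow resurgent current and is abundant in striatal neurons, lies 8.3 kb from Scn2b. It was at 35.0, 64.7 and 43.5 FPKM in control pools 1 to 3 and at 35.2, 79.0 and 69.4 FPKM in olanzapine pools 1 to 3. Low pools of both groups were the same pools in which 8 striatal markers were low: these summed to 297, 533 and 406 FPKM in control pools 1 to 3 and to 304, 673 and 614 FPKM in olanzapine pools 1 to 3. The log2 fold change of Scn4b was 0.33 (95% interval -0.37 to 1.02) and ranged from 0.12 to 0.61 as each pool was left out. The part of striatal tissue in the Scn4b value was not tested.

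**Figure D2:**
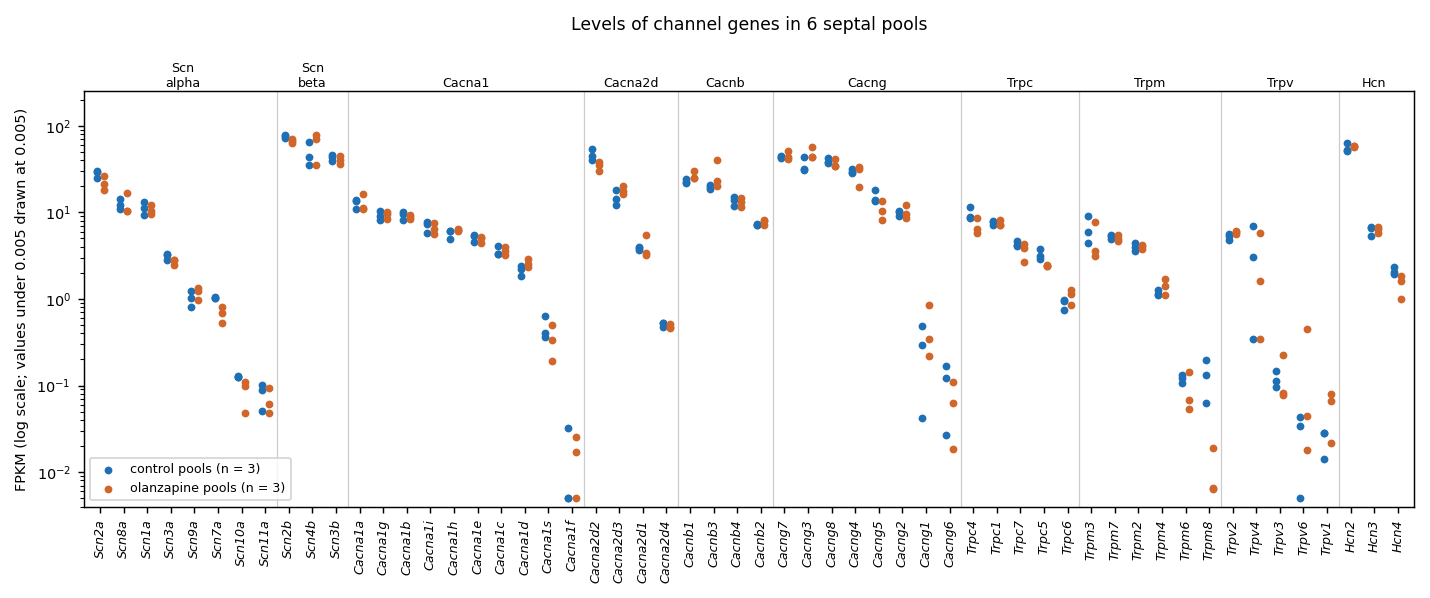
Levels of 56 channel genes as FPKM on a log scale, by family, with 1 point per pool, control in blue and olanzapine in orange (n = 3 each); values under 0.005 are drawn at 0.005, and Scn4a, Trpc2, Trpm1, Trpm5 and Trpv5, at or near 0, are not drawn. Of the genes drawn, Scn2b, Hcn2 and Scn4b are the highest, with means of 70.9, 56.4 and 54.5 FPKM, and the groups overlap for most genes.

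Among the calcium channel pores no gene came near the threshold. Of the 10 alpha1 genes, 9 were tested, 0 had an unadjusted p under 0.05 in edgeR, 0 were called by DESeq2, and 0 of 9 separated the groups; the lowest adjusted p from edgeR's quasi-likelihood test was 0.404, and the family median was -0.01. Cacna1f, the channel of photoreceptors, was too low to be tested. The 95% interval lay within 1 of no change for 8 of the 9 and within 0.5 for 7 of them.

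Cacna1a, the P/Q-type pore of presynaptic terminals, was the highest of them at 13.5, 13.9 and 10.9 FPKM in control pools 1 to 3 and 16.3, 11.1 and 11.2 FPKM in olanzapine pools 1 to 3. Its groups overlapped, with a log2 fold change of -0.01 (95% interval -0.41 to 0.40), and of -0.24 without olanzapine pool 1. Cacna1g, a T-type pore that opens near rest and drives burst firing, was next at 10.4, 9.05 and 8.08 FPKM in control and 10.1, 8.33 and 9.55 FPKM in olanzapine pools 1 to 3. Its log2 fold change was 0.00 (95% interval -0.28 to 0.29).

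Cacna1d, an L-type pore that opens at low voltages, had the smallest p of the family at 2.24, 2.43 and 1.86 FPKM in control and 2.89, 2.36 and 2.51 FPKM in olanzapine pools 1 to 3. Olanzapine pool 2 lay below the highest control pool, and the log2 fold change was 0.23 (95% interval -0.07 to 0.52). The N-type pore Cacna1b had a log2 fold change of -0.09, the L-type pore Cacna1c of -0.00, the R-type pore Cacna1e of -0.08, and the T-type pores Cacna1h and Cacna1i of 0.11 and -0.12. Cacna1s, the skeletal muscle channel, was at 0.407 FPKM on average and less well bounded, with a 95% interval of -1.31 to 0.36, and an opposite-strand transcript shares 20% of its exonic bases.

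Of the alpha2delta subunits, extracellular proteins that carry calcium channels to synapses, Cacna2d2 was the most abundant and had the smallest p. It lies at chr9:107399612-107529343, and its product binds gabapentin. Cacna2d2 was at 53.4, 44.5 and 40.7 FPKM in control pools 1 to 3 and at 29.99, 35.2 and 37.9 FPKM in olanzapine pools 1 to 3. All olanzapine pools lay below all control pools. Normalized counts were 10357 ± 1574 in control and 7566 ± 824 in olanzapine (mean ± SD, n = 3), or 73% of control. Between groups the log2 fold change was -0.45 (95% interval -0.74 to -0.17), not called by edgeR's quasi-likelihood test (adjusted p = 0.116) and called lower by DESeq2 (adjusted p = 0.0142). Without control pool 1, the highest, the log2 fold change was -0.33 and the DESeq2 call was lost (adjusted p = 0.14), as it was in 2 of the 5 other fits that left out a pool.

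Cacna2d3 was at 12.0, 18.0 and 14.2 FPKM in control and 16.4, 20.3 and 17.8 FPKM in olanzapine pools 1 to 3. Control pool 2 lay within the olanzapine range, and the log2 fold change was 0.28 (95% interval -0.04 to 0.60). Cacna2d1 and Cacna2d4 had log2 fold changes of 0.06 and -0.09, and 0 of the 4 genes of this family had a 95% interval beyond 1 on either side. Olanzapine pool 1 was the highest for Cacna2d1. Without that pool its log2 fold change turned to -0.25, not called by edgeR but called lower by DESeq2.

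The intracellular beta subunits, which bring alpha1 pores to the membrane, had a median log2 fold change of 0.15. Cacnb1 was at 21.6, 24.1 and 22.2 FPKM in control pools 1 to 3 and at 29.9, 24.9 and 25.2 FPKM in olanzapine pools 1 to 3. In FPKM every olanzapine pool exceeded every control pool, but not in normalized counts, where olanzapine pool 2 was below control pool 2 (5120 against 5159), and the log2 fold change was 0.22 (95% interval -0.01 to 0.44). Cacnb3 was at 18.7, 20.5 and 19.5 FPKM in control pools 1 to 3 and 40.0, 22.9 and 20.2 FPKM in olanzapine pools 1 to 3.

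Cacnb3 thus had 1 high pool, olanzapine pool 1, the pool that was also highest for the cortical markers. The log2 fold change of Cacnb3 was 0.49 (95% interval -0.06 to 1.04), and 0.10 without that pool. Cacnb2 and Cacnb4, the latter sharing 16% of its exonic bases with an opposite-strand transcript, had log2 fold changes of 0.08 and -0.06.

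In the gamma family, Cacng7, Cacng3, Cacng8 and Cacng4, all AMPA receptor auxiliary subunits, had means of 44.4, 41.9, 37.9 and 29.0 FPKM. Cacng5, of the same kind, had the smallest p of the family. It was at 17.9, 13.99 and 13.6 FPKM in control and at 8.26, 10.3 and 13.5 FPKM in olanzapine pools 1 to 3. All olanzapine pools lay below all control pools, but olanzapine pool 3 and control pool 3 were nearly level. Normalized counts were 2995 ± 508 in control and 2071 ± 505 in olanzapine (mean ± SD, n = 3). Its log2 fold change was -0.53 (95% interval -0.95 to -0.11), with an adjusted p of 0.184 in edgeR's quasi-likelihood test and 0.0498 with DESeq2, whose call was kept in 1 of 6 fits that left out a pool.

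Cacng3 was the only member with an unadjusted p under 0.05 and a positive log2 fold change. It was at 31.7, 43.4 and 31.0 FPKM in control and 57.3, 43.8 and 43.9 FPKM in olanzapine pools 1 to 3. Control pool 2 was level with the 2 lower olanzapine pools, and in normalized counts it exceeded olanzapine pool 2 (2598 against 2520). Between groups the log2 fold change was 0.43 (95% interval 0.05 to 0.81), with an adjusted p of 0.223 in edgeR's quasi-likelihood test, and it was 0.27 without olanzapine pool 1. Cacng7 was at 43.2, 42.9 and 45.0 FPKM in control and 50.5, 43.5 and 41.1 FPKM in olanzapine pools 1 to 3, with a log2 fold change of 0.02 (95% interval -0.19 to 0.24). Cacng2, the stargazin gene, had a log2 fold change of 0.02. The skeletal muscle subunit Cacng1 and its relative Cacng6 were below 0.4 FPKM on average, and their intervals ran from -1.08 to 2.57 and from -2.63 to 1.15.

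Among the TRPC genes, opened downstream of phospholipase C, Trpc4 was the most abundant at a mean of 8.33 FPKM, and Trpc1, Trpc7, Trpc5 and Trpc6 were at 7.55, 3.97, 2.83 and 0.989 FPKM. Trpc2, the channel of pheromone-sensing neurons, had 0 counts in all pools, and all its exonic bases are shared with overlapping genes on the same strand. The family median was -0.16, and 2 of the 6 tested genes, Trpc4 and Trpc5, had an unadjusted p under 0.05, both lower, where 8.4% of all genes passed lower.

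Trpc5, at chrX:144381671-144688180, was at 3.73, 2.86 and 3.10 FPKM in control pools 1 to 3 and at 2.42, 2.497 and 2.38 FPKM in olanzapine pools 1 to 3. The olanzapine pools were close together and all below the control pools. Normalized counts were 1083 ± 161 in control and 801 ± 12.4 in olanzapine (mean ± SD, n = 3), or 74% of control. The log2 fold change was -0.43 (95% interval -0.70 to -0.17), with an adjusted p of 0.102 in edgeR's quasi-likelihood test and 0.0272 with DESeq2. DESeq2 kept the call in 2 of the 6 fits that left out a pool, those without control pool 2 and without olanzapine pool 1.

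Trpc4, whose protein assembles with that of Trpc5 and Trpc1, was at 11.6, 8.62 and 8.79 FPKM in control and 6.42, 5.85 and 8.71 FPKM in olanzapine pools 1 to 3. Olanzapine pool 3 was level with control pools 2 and 3, and the other olanzapine pools were lower. Its log2 fold change was -0.49 (95% interval -0.90 to -0.08), with an adjusted p of 0.205 in edgeR's quasi-likelihood test and 0.0762 with DESeq2. Trpc1 was at 7.73, 7.996 and 7.11 FPKM in control and 8.15, 7.20 and 7.11 FPKM in olanzapine pools 1 to 3, with overlapping groups and a log2 fold change of -0.05 (95% interval -0.26 to 0.17). Trpc6 and Trpc7 had log2 fold changes of 0.27 and -0.28.

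**Figure D3:**
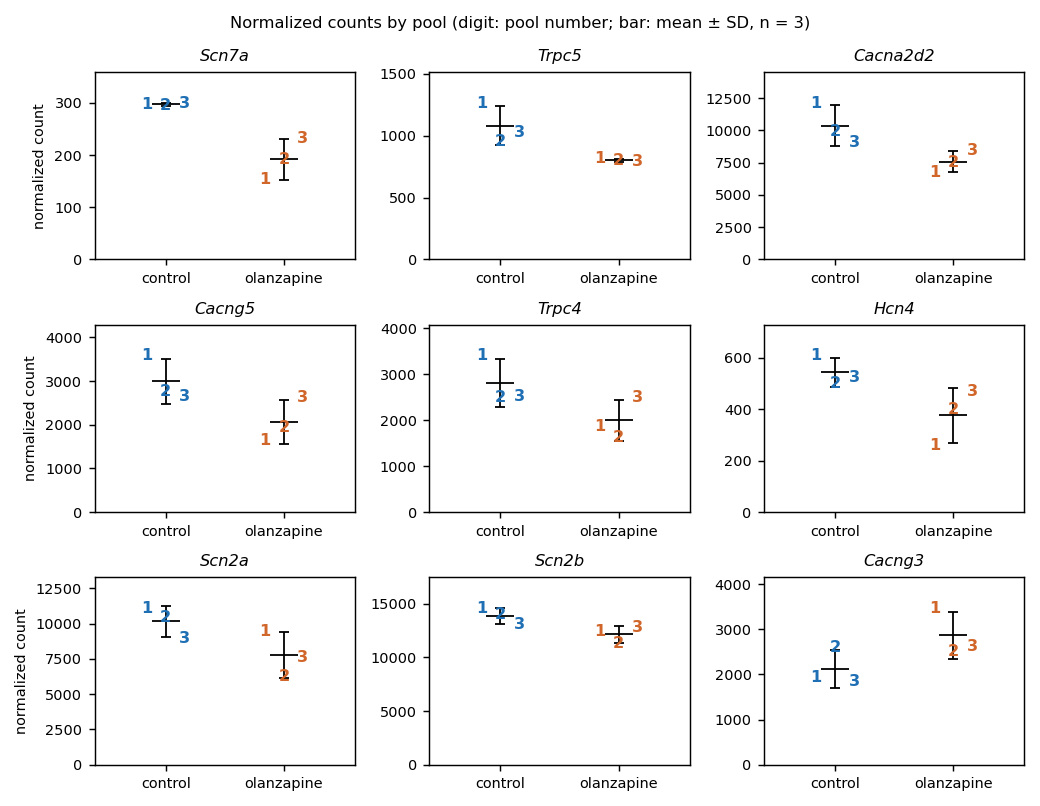
Normalized counts of 9 channel genes in each pool, with the digit giving the pool number and black bars the mean ± SD (n = 3 pools per group); the axes start at 0. Olanzapine pools lie below all control pools for Scn7a, Trpc5, Cacna2d2, Cacng5, Hcn4 and Scn2b but not for Trpc4, Scn2a and Cacng3, and control pool 1 is the highest pool in all panels except Scn7a and Cacng3.

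Markers of septal neurons were read beside these genes. Over the 12 markers of lateral septum neurons, 10 had a log2 fold change below 0, with a median of -0.32, edgeR called 0 and DESeq2 called 1 lower, Prdm16. The summed level was 746, 696 and 632 FPKM in control and 597, 643 and 728 FPKM in olanzapine pools 1 to 3, so olanzapine pool 1 was the lowest and olanzapine pools 2 and 3 lay within the control range. Zic1, a transcription factor of septal neurons, was at 67.1, 53.9 and 52.7 FPKM in control and 31.6, 43.7 and 51.4 FPKM in olanzapine pools 1 to 3, the same order of pools as for Cacna2d2 and Cacng5, and was singled out after its values were seen. Its log2 fold change was -0.48, near those of Trpc4 and Cacng5. The part of septal neuron content in the channel values was not tested.

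The TRPM genes fell into 5 tested and 3 too low to test (Trpm1, Trpm5 and Trpm8), with a median log2 fold change of -0.10 and 0 unadjusted p-values under 0.05. Trpm3 and Trpm7, the latter a channel joined to a kinase, were highest at means of 5.61 and 5.14 FPKM. Trpm7 was at 5.46, 4.96 and 5.39 FPKM in control and 4.70, 5.40 and 4.93 FPKM in olanzapine pools 1 to 3, with a log2 fold change of -0.10 (95% interval -0.27 to 0.07). Trpm4, opened by intracellular calcium, had the smallest p, at 1.13, 1.10 and 1.26 FPKM in control and 1.72, 1.42 and 1.12 FPKM in olanzapine pools 1 to 3. Its groups overlapped, with a log2 fold change of 0.26 (95% interval -0.18 to 0.70). Trpm2, gated by oxidative signals, had a log2 fold change of -0.01 and the rarely transcribed Trpm6, a magnesium channel, of -0.48 (95% interval -1.47 to 0.51).

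Trpm3, a steroid and heat sensor that is also made in choroid plexus, was at 4.39, 5.93 and 9.01 FPKM in control and 3.56, 7.65 and 3.13 FPKM in olanzapine pools 1 to 3. Trpv4, an osmosensor of the same epithelium, was at 0.345, 3.03 and 7.04 FPKM in control and 1.62, 5.83 and 0.347 FPKM in olanzapine pools 1 to 3. Control pool 3 and olanzapine pool 2 were highest for both genes. The 10 choroid plexus markers summed to 45.3, 1901 and 5390 FPKM in control and to 806, 3468 and 29.1 FPKM in olanzapine pools 1 to 3, with the same highest pools, and 0 of the 10 markers was called in either direction by edgeR or DESeq2. Between groups, the log2 fold change of Trpm3 was -0.46 (95% interval -1.28 to 0.36), and that of Trpv4 was -0.45 with the widest interval of any tested member, -2.88 to 1.98. As each pool was left out, the Trpm3 value ranged from -0.95 to -0.14. The Trpv4 value ranged from -1.81 to 0.60, so no direction was set for Trpv4.

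**Figure D4:**
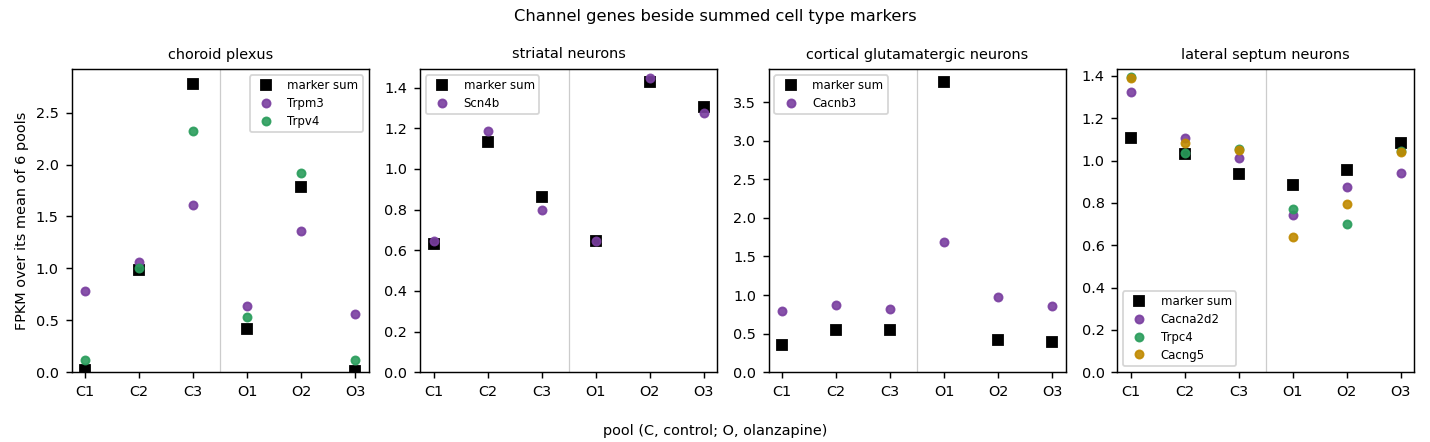
FPKM of channel genes (circles) and of summed marker genes (black squares), each divided by its mean over the 6 pools, by pool, for 4 marker lists; the channel genes shown were chosen after their values were seen. Trpm3 and Trpv4 are highest in the pools with most choroid plexus markers (control pool 3 and olanzapine pool 2), Scn4b is lowest in the 2 pools with least striatal markers, and Cacnb3 is highest in olanzapine pool 1, where cortical markers sum to 342 FPKM.

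Trpv2, a channel with roles in growth and immune cells, was the highest TRPV gene at 5.66, 5.37 and 4.84 FPKM in control and 5.60, 5.90 and 6.10 FPKM in olanzapine pools 1 to 3. The groups overlapped, with a log2 fold change of 0.13 (95% interval -0.10 to 0.36). Trpv3, a skin warmth sensor, averaged 0.124 FPKM, with an interval of -1.11 to 1.27. Trpv1, the capsaicin receptor, and the epithelial calcium channels Trpv5 and Trpv6 were too low to be tested. Trpv6 had 4, 5 and 0 reads in control and 51, 2 and 5 in olanzapine pools 1 to 3, with the highest number in olanzapine pool 1.

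Trpm8, the menthol and cold receptor, was the only untested member whose groups did not overlap, and is described for that reason, after its values were seen. It had 32, 21 and 10 reads in control and 1, 1 and 3 in olanzapine pools 1 to 3, and an opposite-strand transcript shares 8.2% of its exonic bases. Without the filter on low counts its adjusted p in edgeR's quasi-likelihood test was 0.0597. DESeq2 called it lower in the fits without control pool 3 and without olanzapine pool 1, 2 or 3. In those fits it passed the filter through its control reads alone. With so few reads, the size of the difference was not well set.

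Of the HCN genes, Hcn2 dominated at a mean of 56.4 FPKM over the 6 pools, and Hcn3 and Hcn4 stood at 6.27 and 1.79 FPKM. Hcn2, the widespread neuronal pacemaker subunit, was at 62.8, 52.9 and 50.6 FPKM in control and 56.2, 58.2 and 57.7 FPKM in olanzapine pools 1 to 3. The olanzapine pools lay inside the control range, and the log2 fold change was 0.02 (95% interval -0.19 to 0.24). Hcn3, at 6.77, 6.61 and 5.30 FPKM in control and 6.73, 6.44 and 5.77 FPKM in olanzapine pools 1 to 3, had a log2 fold change of -0.00 (95% interval -0.28 to 0.28) and shares 17.1% of its exonic bases with Pklr on the opposite strand.

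Hcn4, the slow pacemaker subunit of the sinoatrial node and thalamus, was at 2.32, 1.94 and 2.04 FPKM in control and 0.988, 1.61 and 1.83 FPKM in olanzapine pools 1 to 3. All olanzapine pools were below all control pools, with olanzapine pool 1 the farthest. Between groups the log2 fold change was -0.53 (95% interval -1.03 to -0.04), with an adjusted p of 0.246 in edgeR's quasi-likelihood test and 0.135 with DESeq2, and it was -0.32 without olanzapine pool 1.

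Trpc4ap, the non-channel match, was at 53.8, 54.4 and 55.0 FPKM in control and 54.7, 55.8 and 56.6 FPKM in olanzapine pools 1 to 3, with a log2 fold change of 0.01 (95% interval -0.13 to 0.15).

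Beyond the members, 68 further genes of channel function were listed, of which 67 had a row and 58 were tested, with a median log2 fold change of 0.02. EdgeR's quasi-likelihood test called 1 higher and 1 lower of the 58, a share near the 2.32% it called of all genes. Ryr1, a ryanodine receptor that releases calcium from intracellular stores, rose by a log2 fold change of 1.18 (adjusted p = 0.014), from 0.669, 0.866 and 0.551 FPKM in control to 1.41, 1.77 and 1.64 FPKM in olanzapine pools 1 to 3. Cngb1, a cyclic nucleotide-gated relative of the HCN genes, fell by 0.94 on the log2 scale (adjusted p = 0.0488), from 0.604, 0.626 and 0.628 FPKM to 0.335, 0.377 and 0.271 FPKM. Both genes separated the groups, at levels far below those of the common channel genes.

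By list, 0 of 8 sodium channel partners, 0 of 4 genes of the sodium leak complex, 0 of 14 calcium channel modulators, 0 of 4 tested genes of other TRP families, 0 of 9 AMPA receptor subunits and auxiliaries and 0 of 1 tested CatSper genes were called by edgeR, against 1 of 13 store-operated and intracellular calcium channels and 1 of 5 tested HCN partners and relatives. At an unadjusted p under 0.05, 16 of the 58 passed (27.6%, against 17.6% of all genes), 6 higher and 10 lower. Of all genes, 9.19% passed higher and 8.4% lower. DESeq2 called 1 higher, Ryr1, and 4 lower, or 8.62%, against 6.69% of all genes in either direction, 3.84% higher and 2.85% lower. The 4 lower genes were Cngb1, Nalcn, Ank3 and Shisa6. Nalcn, the pore of the sodium leak channel, had a log2 fold change of -0.36. Ank3, which anchors sodium channels at the initial segment, was at -0.33, and Shisa6, an AMPA receptor auxiliary subunit, at -0.82.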

How the data were processed

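Total RNA libraries of 6 septal pools (3 per group) were sequenced as paired-end reads of 150 bases. The authors cleaned the reads with fastp, mapped them using HISAT2 and obtained gene counts from HTSeq, on mouse build mm10 per the labels. They deposited raw counts and FPKM values of 35415 genes. Tool versions, the annotation, the strand setting and the handling of reads with several matches are not given in the sources used here, so members that share exonic bases with another gene (19 of 66, of which 7 share over 5%) are less certain. The processing notes name no role for the build.

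The members and lists were chosen with earlier results of these data known. Counts were filtered with filterByExpr (minimum count 10, minimum total 15), normalized with TMM and tested with edgeR 4.0.16 (quasi-likelihood F test, group as the only term, Benjamini-Hochberg adjustment over 17255 genes) in R 4.3.3. A call needed an adjusted p under 0.05, and 0 members also passed a log2 fold change beyond 1. The standard error was the log2 fold change divided by the square root of F, and 95% intervals used the fitted degrees of freedom. Normalized counts are counts scaled to the mean effective library size, and whether groups overlapped was read from them. FPKM per pool is as the authors deposited it and is used for levels only. DESeq2 1.42.0, the tool of the study, other normalizations and filters, limma 3.58.1 on log2(FPKM + 1) or log2(FPKM + 0.1), offsets for transcript length (lowess span 0.3), a replicate block and leaving out each pool were alternatives. An offset for genomic span, unadjusted p with DESeq2, and DESeq2 without each pool were chosen after seeing the data.

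Values are given in every pool for the 2 members of each family with the highest mean FPKM and the one with the smallest p. Scn7a, Scn4b, Scn2a's neighbour Scn3a, Trpv6 and Trpm8 were singled out after their values were seen. A few members are left out of the text and figures. Pool numbers were checked for pairing: the deviations of same-numbered pools from their group means correlated at 0.0148, 0.108 and -0.404, so the numbers were not used as pairs. Pools of a group differed by more than counting noise (chi-square per gene 22.8 to 56.8). Of the columns of per-pool values, 0 were left unused, and 0 rows had no name. Gene positions came from GENCODE M21 (GRCm38). The scripts were tested on simulated counts.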

Additional observations from a re-analysis of the deposited data

How the results depend on the processing

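For 28 genes (those of the naming rule with Scn7a and Scn4b), none of them called in the reported fit, 487 of 504 alternative values stayed uncalled and 17 passed, 10 of these only by the use of an unadjusted p, and Hcn3, near no change, took either sign (7 of 17 alternatives kept the reported sign). Counts of calls depended on the tool and the threshold. Members called lower numbered 0 in the reported fit, 5 with DESeq2, 1 without a count filter, 10 at an unadjusted p under 0.05 in either tool, and 0 to 2 as each pool was left out, with 2, among them Scn2a, without olanzapine pool 1. Members called higher numbered 0, and 1 at an unadjusted p in edgeR or DESeq2. DESeq2 called 1 to 7 members lower and 0 to 2 higher as each pool was left out, with 715 to 1341 of all genes called in those fits. Trpm8, too low to be tested with all pools, was among those called lower in some of them. Over all genes, the 401 calls became 1154 with DESeq2, 240 with limma on log2(FPKM + 1) without a filter, 3035 and 3062 at an unadjusted p in edgeR and DESeq2, and 131 to 508 in edgeR as each pool was left out; the cause was not tested. The replicate number as a block (replicate block) left 140 genes and 0 members called, and the numbers share no origin that the labels name. Family medians moved by more than their spread in 10 of 187 alternatives. With 3 pools per group, differences within the printed intervals could be missed. These intervals are not adjusted for the number of genes: that of Cacna2d2 (-0.74 to -0.17) left out 0, yet edgeR did not call it.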

Other observations

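Channel genes are long: the median genomic span of the 65 channel genes was 71698 bases, against 23781 bases over the 15995 tested genes with a span. Several members lie beside each other with no protein-coding gene between, and some neighbours differed in sign while others did not. Scn3a and Scn2a had log2 fold changes of -0.24 and -0.39, and Scn10a and Scn11a of -0.61 and -0.29. On chromosome 2, Scn1a, Scn9a and Scn7a follow each other at gaps of 39.2 and 38.5 kb, with log2 fold changes of -0.10, 0.19 and -0.63. On chromosome 11, Cacng1, Cacng4 and Cacng5 lie 15.8 and 80.0 kb apart, with log2 fold changes of 0.75, -0.10 and -0.53. On chromosome 9, Scn2b and Scn4b lie 8.3 kb apart, with log2 fold changes of -0.19 and 0.33.

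The pools did not contribute evenly to the extremes. Olanzapine pool 1 held the highest value of 16 of 56 tested members and the lowest of 16 (28.6% each), against 22.8% and 22.3% of all genes. Control pool 2 held the highest value of 3 members and the lowest of 2.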
